A study of Sus scrofa with 4 samples.

Results

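The cytosolic ribosomal protein genes were examined in sorted epidermal cells of the pig. They were taken as every named row of the count table whose symbol is RPL or RPS followed by a number and at most 1 letter, together with RPLP0, RPLP1, RPLP2 and RPSA. This gave 79 of 29837 named genes, 47 of the large subunit and 32 of the small subunit. The cells came from juvenile pigs carrying H2B-GFP, a green fluorescent protein joined to a histone, knocked into exon 1 of 1 allele of LGR5, so that the LGR5 promoter drives the reporter. The knock-in was made in clonal cell lines and passed into animals by somatic cell nuclear transfer; whether pigs 88R and 95R are nuclear transfer animals or their progeny is not given in the sources used here. LGR5-high cells (GFP-hi) and LGR5-negative cells (GFP-neg) were sorted from the dissociated epidermis and hair of pigs 88R and 95R, and poly(A) RNA was sequenced. Both populations therefore carry the knock-in and differ by the gate. LGR5 marks stem cells of the hair follicle bulge and outer root sheath, while the negative gate takes all other epidermal cells without the reporter.

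Each ribosome is built from a large and a small subunit, in which most ribosomal proteins are present in equal numbers, and the genes for them are commonly expressed in step with each other. In mammals these mRNAs begin with a terminal oligopyrimidine (TOP) tract, through which growth signals acting by mTOR and the RNA-binding protein LARP1 control their translation. Ribosomal protein mRNAs are among the most abundant in an epithelial cell. Their level is often read as a sign of growth, although the mRNA level alone does not give the rate at which ribosomes are made or used.

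The libraries held between 30696803 and 32463362 counts on named genes, so depth differed little between populations. All members but RPL3L, RPL10L and RPS27L had between 8462 and 71490 counts in every library. Summed markers of the outer root sheath were higher in LGR5-high and those of the suprabasal epidermis lower. LGR5 is among the former, and its reporter set the gate, so its own difference is not separate evidence. Of the 5 outer root sheath markers 4 were higher and 0 lower, and of the 5 suprabasal markers 0 were higher and 4 lower. The summed level of the 5 outer root sheath markers (LGR5, SOX9, LHX2, KRT15, TCF4) was 2135 and 3340 CPM (relative read counts after the TMM scaling described with the test) in LGR5-high and 762 and 1385 CPM in LGR5-negative. The 5 suprabasal markers, among them KRT1 and KRT10, summed to 5586 and 5013 CPM in LGR5-high and to 63939 and 54922 CPM in LGR5-negative. The 3 basal epidermis markers found in the table summed to 27450 and 29405 CPM in LGR5-high and to 34639 and 31422 CPM in LGR5-negative. Of these 3, 0 were higher and 1 was lower. Markers of other cells were low. The 5 immune markers found in the table summed to between 7.38 and 14.8 CPM in LGR5-high and between 134 and 160 CPM in LGR5-negative. The 4 fibroblast markers summed to between 89.0 and 117 CPM and between 187 and 252 CPM, and the 5 melanocyte markers to between 32.2 and 36.7 CPM and between 61.1 and 233 CPM. Other markers were higher in LGR5-high or moved both ways. The 3 smooth muscle markers summed to 10.0 and 10.1 CPM in LGR5-high and 2.95 and 3.47 CPM in LGR5-negative, and both that could be tested were higher. The 4 nerve and Schwann cell markers summed to 7.76 and 13.8 CPM against 3.19 and 8.67 CPM, with 1 higher and 1 lower of 3 tested. No listed marker found in the table was at 0 in all libraries. The part of these cells in the values below was not tested.

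As a fraction of all named counts, the ribosomal protein genes took a larger part of LGR5-high libraries. They held 7.18% and 7.38% of the counts in LGR5-high of pigs 88R and 95R, and 6.41% and 6.38% in LGR5-negative. Both LGR5-high libraries lay above both LGR5-negative libraries. On the same scale this order held for 53.7% of all genes tested, and their median log2 fold change was 0.24. The mean was 7.28% ± 0.142 (SD, n = 2) against 6.39% ± 0.0214 (SD, n = 2), a ratio of 1.12 in pig 88R and 1.16 in pig 95R. An exact two-sided permutation test gave p = 0.333, the smallest that 2 libraries against 2 allow. The summed counts of the keratin genes, the main structural genes of the epidermis, moved the other way. They took 3.63% and 3.87% of the counts in LGR5-high and 8.84% and 7.95% in LGR5-negative. Single keratin genes moved both ways. Of 31 tested, 25.8% were higher and 38.7% lower with TMM scaling, beside 22.7% and 22.0% of all genes. With keratin counts left out of the total, the ribosomal share was 7.45% and 7.68% in LGR5-high and 7.03% and 6.93% in LGR5-negative, and the ratio of the means fell from 1.14 to 1.08. With the 20 other genes of highest mean CPM left out instead, the ratio was also 1.08. The part of the keratin counts in the ribosomal share beyond these values was not tested, and in bulk RNA fewer cells of a type cannot be told apart from less RNA per cell.

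**Figure D1:**
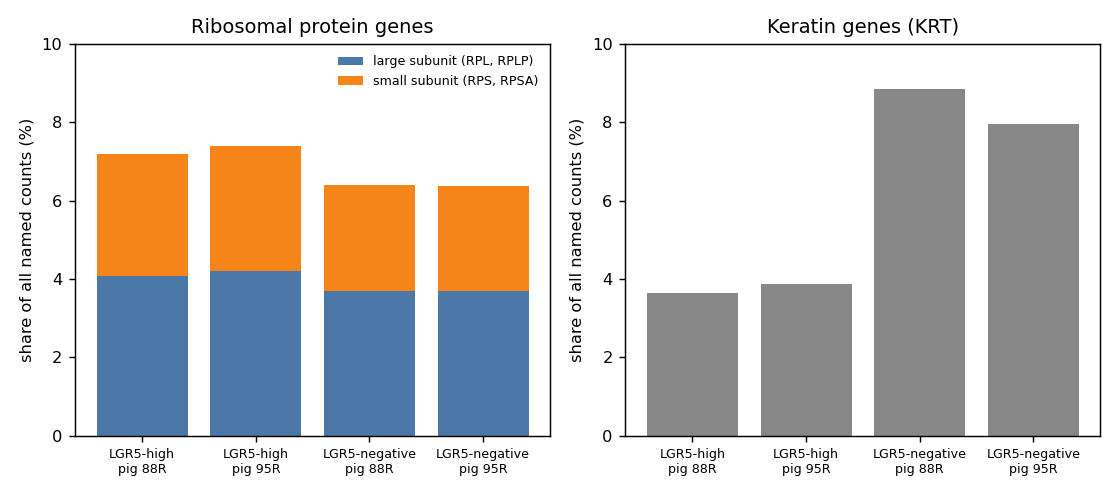
Share of all named counts (vertical axes, %, from 0) held by the ribosomal protein genes, split by subunit (left), and by the keratin genes (right), with 1 bar for each of the 4 libraries. The ribosomal share is 7.18% and 7.38% in LGR5-high and 6.41% and 6.38% in LGR5-negative, and the keratin share runs in the opposite direction.

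Both subunits contributed to the share. The large subunit genes held 4.08% and 4.21% of the counts in LGR5-high and 3.68% and 3.70% in LGR5-negative. The small subunit genes held 3.11% and 3.18% in LGR5-high and 2.73% and 2.68% in LGR5-negative. The ratio of large to small subunit counts was 1.31 and 1.33 in LGR5-high and 1.35 and 1.38 in LGR5-negative.

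To ask which members differed between the populations, the counts of all genes were fitted with edgeR's quasi-likelihood test after TMM scaling, which sets libraries to each other by the bulk of genes that differ least. Of 15980 genes tested, 44.7% were called at an adjusted p-value under 0.05 in either direction, 22.7% higher and 22.0% lower in LGR5-high. Of the 79 members, 78 passed the filter on low counts. Of these, 2 were higher (RPSA and RPL21), 3 were lower (RPLP1, RPLP2 and RPS15) and 73 were not called, so that 6.41% of the tested members were called. Without adjustment, 3 higher and 4 lower members had a p-value under 0.05. The median log2 fold change of the members was -0.02, beside 0.02 over all genes tested. The members lay close together. The SD of their log2 fold changes was 0.147 and the interquartile range 0.166, against 1.43 and 0.957 over all genes tested. Nearly all members have high counts, while all genes tested reach down to the filter on low counts. The spread of genes with like counts was not compared. For 66 of the 78 the log2 fold change was smaller than 0.2 in size.

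Under TMM scaling, the test bounds these differences as well. The 95% interval of a member's log2 fold change reached a median of 0.203 to either side of the estimate, and for 72 of the 78 the whole interval lay between -0.5 and 0.5. The 6 others were RPL3L, RPS27L, RPLP1, RPLP2, RPS15 and RPSA. The interval covered 0 for 71 members. These intervals do not include the choice of scaling. With library size only, the median of the members was 0.20 instead of -0.02. These p-values rest on 2 animals and on a spread that edgeR estimates with the help of all genes. The main fit does not pair the libraries of a pig. The exact permutation test of a single gene cannot go below 0.333 here.

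**Figure D2:**
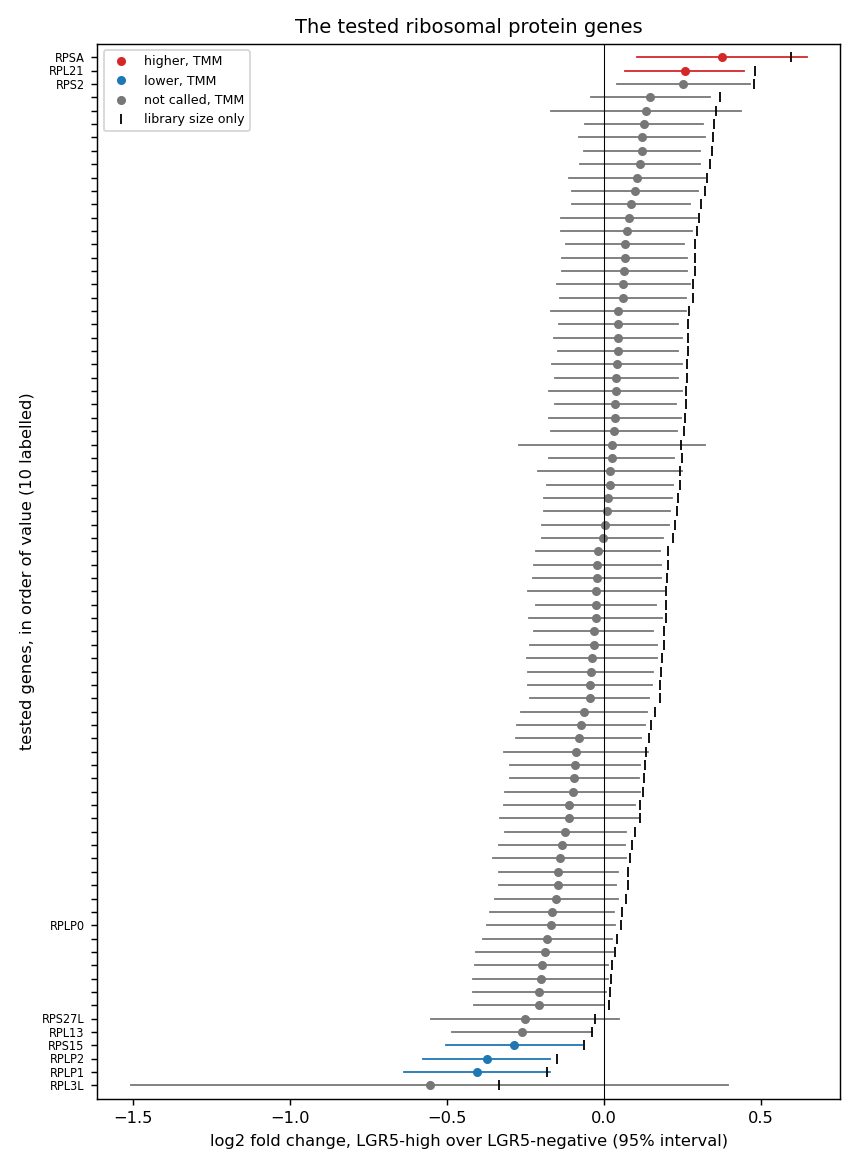
Log2 fold change of LGR5-high over LGR5-negative (horizontal axis) for the 78 tested ribosomal protein genes, ordered by value, with some of the genes the text describes labelled. Points and lines give the TMM estimate with its 95% interval, coloured by call, and black ticks the estimate with library size only; most points lie near 0, and the ticks lie to the right of them by a nearly constant distance.

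The direction of the family as a whole followed the scaling. With library size only, in which a level is simply a share of all named counts, the median of the members was 0.20, and edgeR called 30 members higher and 0 lower. Before adjustment, 41 and 0 had a p-value under 0.05. The background moved too, since 48.8% of all genes were then called, 34.2% higher and 14.6% lower, and the median of all genes was 0.24. Relative to the median of all genes, the median of the members was -0.036 with TMM and -0.035 with library size only, and 33 of the 78 members lay above the median gene under either scaling. Upper quartile scaling gave a median of 0.07 for the members beside 0.11 for all genes, with 4 members higher and 2 lower where 45.2% of all genes were called, 26.9% higher and 18.3% lower. A library size without keratin counts, added after the values had been seen, gave 10 higher and 0 lower members with a median of 0.13, beside 46.2% of all genes called, 29.9% higher and 16.3% lower. Leaving the ribosomal protein genes out of the TMM computation gave the same 2 higher and 3 lower members.

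Whether the groups overlapped depended on the scaling in the same way. On TMM CPM, both LGR5-high libraries lay above both LGR5-negative libraries for 20 of the 78 members and below them for 31, and 27 overlapped. Over all genes tested the shares were 39.2% above and 37.4% below. On CPM by library size, 66 members lay above and 3 below, beside 53.7% and 24.6% of all genes.

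The lower members were led by the ribosomal stalk, a flexible arm of the large subunit that recruits the translation factors acting by GTP hydrolysis. In it the anchor RPLP0 carries dimers of the acidic proteins RPLP1 and RPLP2. RPLP1 had 1011 and 1045 CPM in LGR5-high of pigs 88R and 95R and 1435 and 1283 CPM in LGR5-negative. RPLP2 had 671 and 698 CPM in LGR5-high and 909 and 864 CPM in LGR5-negative. For both genes the LGR5-high libraries lay below the LGR5-negative libraries. The log2 fold change was -0.40 for RPLP1 (SE 0.0937, adjusted p = 0.0172, edgeR) and -0.37 for RPLP2 (SE 0.0819, adjusted p = 0.0143, edgeR). In pigs 88R and 95R it was -0.51 and -0.30 (RPLP1), and -0.44 and -0.31 for RPLP2. RPLP0 had 1660 and 1645 CPM in LGR5-high and 1882 and 1829 CPM in LGR5-negative, without overlap. The order of RPLP0 turned with library size only, at 1800 and 1772 CPM in LGR5-high above 1731 and 1704 CPM in LGR5-negative and a log2 fold change of 0.06. Its log2 fold change was -0.17 (95% interval -0.371 to 0.0368, adjusted p = 0.152, edgeR), and it was not called. The counts of RPLP1 were 60.9% and 63.5% of those of RPLP0 in LGR5-high and 76.3% and 70.2% in LGR5-negative.

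RPS15, a protein of the small subunit head next to the decoding site, had 1112 and 1141 CPM in LGR5-high and 1431 and 1316 CPM in LGR5-negative. LGR5-high was lower by a log2 fold change of -0.29 (SE 0.0879, adjusted p = 0.0431, edgeR), at -0.36 in pig 88R and -0.21 in pig 95R. RPL13, of the large subunit, had 957 and 1019 CPM in LGR5-high and 1233 and 1136 CPM in LGR5-negative. The value of -0.26 on the log2 scale did not pass the test (adjusted p = 0.0609, edgeR), and it was called lower with the pig as a replicate block (adjusted p = 0.0215, edgeR).

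Among the members of higher level, RPSA encodes a small subunit protein also known as the laminin receptor precursor. It had 877 and 962 CPM in LGR5-high of pigs 88R and 95R and 653 and 764 CPM in LGR5-negative. The libraries of the populations did not overlap, and pig 95R was above pig 88R in each of them. The log2 fold change of RPSA was 0.38 (SE 0.110, adjusted p = 0.0363, edgeR), at 0.43 in pig 88R and 0.33 in pig 95R. RPL21, a large subunit gene, had 618 and 636 CPM in LGR5-high and 522 and 527 CPM in LGR5-negative. LGR5-high was higher by a log2 fold change of 0.26 (SE 0.0767, adjusted p = 0.0386, edgeR), with 0.25 and 0.27 in the 2 pigs. RPS2, which lies where the mRNA enters the small subunit, had 2079 and 2083 CPM in LGR5-high and 1797 and 1692 CPM in LGR5-negative. The log2 fold change of 0.25 missed the threshold (adjusted p = 0.0571, edgeR) and passed it with the replicate block (adjusted p = 0.0203, edgeR). With that block, 3 members were higher (RPSA, RPL21 and RPS2) and 4 lower (RPLP1, RPLP2, RPS15 and RPL13), beside 55.7% of all genes called, 28.5% higher and 27.2% lower. RPL37A, next in order, had 490 and 475 CPM in LGR5-high and 441 and 429 CPM in LGR5-negative, without overlap, and its log2 fold change of 0.15 was not called (adjusted p = 0.168, edgeR).

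These calls rest on few libraries. Leaving 1 out lowers the number of libraries for every gene, and the share of all genes then called is not given here. The counts that follow therefore do not set the members apart from other genes. Without the LGR5-high library of pig 88R, or without that of pig 95R, 0 members were called by edgeR; at an unadjusted p-value under 0.05 there were 1 higher and 2 lower members in the first case, and 0 and 3 in the second. Without the LGR5-negative library of pig 88R, RPLP1 and RPLP2 were called, and without that of pig 95R, RPSA, RPLP1, RPLP2, RPS15 and RPL13 were.

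A scaling that does not depend on other genes was obtained by setting the library size to the summed counts of the members, so that each gene is read as its part of the ribosomal protein pool. This scaling was chosen after the values had been seen. On it, edgeR called RPSA, RPL21 and RPS2 higher and RPLP1 and RPLP2 lower, while 43.7% of all genes were called, 23.7% higher and 20% lower. RPSA made up 1.32% and 1.40% of the pool in LGR5-high and 0.937% and 1.12% in LGR5-negative. RPL21 made up 0.934% and 0.927% in LGR5-high and 0.749% and 0.769% in LGR5-negative. RPS2 made up 3.14% and 3.04% against 2.58% and 2.47%. The log2 fold changes within the pool were 0.41 (adjusted p = 0.0284), 0.29 (adjusted p = 0.0284) and 0.29 (adjusted p = 0.0356) in the same order, all from edgeR. RPLP1 made up 1.53% and 1.52% of the pool in LGR5-high and 2.06% and 1.87% in LGR5-negative, with a log2 fold change of -0.37 (adjusted p = 0.0201, edgeR). RPLP2 made up 1.01% and 1.02% against 1.30% and 1.26%, with a log2 fold change of -0.34 (adjusted p = 0.0189, edgeR). RPS15 reached -0.25 (adjusted p = 0.0582, edgeR) and was called with the replicate block (adjusted p = 0.0358, edgeR), where 51.8% of all genes were called, 28.4% higher and 23.4% lower. A gene's part of the pool is a ratio of counts within a library and is the same under any scaling between libraries.

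**Figure D3:**
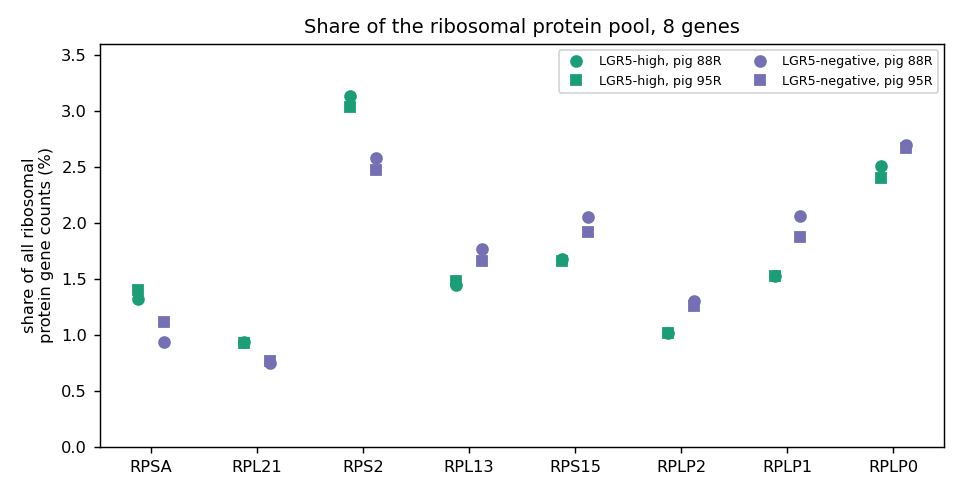
Share of the summed ribosomal protein gene counts (vertical axis, %, from 0) held by 8 genes in each library, with green for LGR5-high and violet for LGR5-negative, circles for pig 88R and squares for pig 95R. RPSA, RPL21 and RPS2 lie higher in LGR5-high and the other genes lie lower, and for each gene the populations do not overlap. The genes are the stalk and members picked for their extreme values, so the separation does not describe the other members.

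Counts were not divided by transcript length, so members are not ranked by level. Members with a large part of the pool's counts included RPS2, RPLP0, RPL13A and RPL4, with means over the libraries between 2.36% and 2.81%. Of these, RPS2 was called on the pool scaling. RPL13A, known also for a role in translational silencing, had 1740 and 1763 CPM in LGR5-high and 1667 and 1727 CPM in LGR5-negative (log2 fold change 0.05, adjusted p = 0.679, edgeR). RPL4 had 1523 and 1591 CPM against 1656 and 1666 CPM (log2 fold change -0.09, adjusted p = 0.398, edgeR).

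The subunits were close in their medians. Of 46 large subunit genes tested, 1 was higher and 2 were lower, with a median log2 fold change of -0.03. Of 32 small subunit genes tested, 1 was higher and 1 was lower, with a median of 0.01. The ribosomal proteins shared by all domains of life, 33 in number, had a median of -0.04, with 1 higher (RPSA) and 1 lower (RPS15). The 43 other members, leaving out the paralogs, had a median of 0.02, with 1 higher (RPL21) and 2 lower (RPLP1 and RPLP2). The 18 universal proteins of the large subunit had log2 fold changes between -0.21 for RPL35 and 0.10 for RPL26, and none was called with TMM or with the replicate block, while 3 were higher with library size only. Before adjustment 0 of the 18 had a p-value under 0.05 in edgeR's test, and RPL35 came nearest (adjusted p = 0.0953). RPL5 and RPL11, which carry the small ribosomal RNA of the large subunit and bind the p53 regulator MDM2 when free, had log2 fold changes of -0.07 and -0.10 and were not called.

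The pigs were compared member by member. Values in pig 88R and pig 95R correlated across the 78 tested members with a Pearson coefficient of 0.892 and a Spearman coefficient of 0.826, beside 0.916 and 0.879 across all genes tested; members are not independent replicates, and those of a pig share its libraries. The median was -0.05 for pig 88R and 0.02 for pig 95R. The log2 fold change was above 0 in both pigs for 23 members, below 0 in both for 32 and of opposite sign for 23. These are 29.5%, 41.0% and 29.5% of the members, beside 44.0%, 41.9% and 14.1% of all genes tested. On library size only it was above 0 in both for 66 members, or 84.6% beside 58.4% of all genes. It was then below 0 in both for 3 (RPLP1, RPLP2 and RPL3L), or 3.85% beside 28.2% of all genes. All members with a call moved the same way in each pig. The calls rest on the same libraries, so this agreement is not separate evidence.

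**Figure D4:**
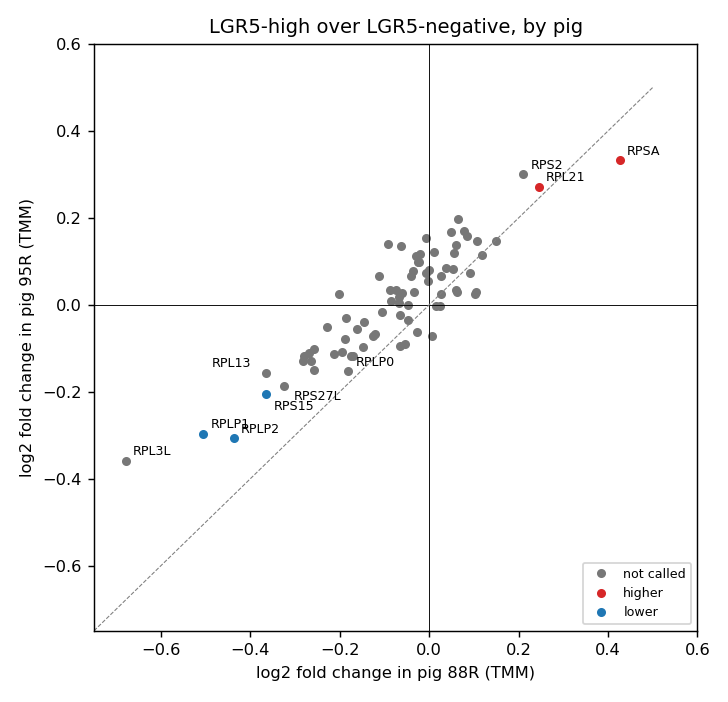
Log2 fold change of LGR5-high over LGR5-negative after TMM scaling in pig 95R (vertical axis) against pig 88R (horizontal axis) for the 78 tested members, with the called genes in red (higher) and blue (lower) and the dashed line marking equal values. The points form a band that lies mostly above the line, with RPL3L, RPLP1 and RPLP2 at its lower end and RPSA at its upper end.

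Some members differed between the animals more than between the populations, among them RPL14 and RPS9. RPL14 had 877 and 861 CPM in LGR5-high and LGR5-negative of pig 88R, and 1020 and 1003 CPM in those of pig 95R. The log2 difference of pig 95R over pig 88R was 0.22 in both populations, while that of LGR5-high over LGR5-negative was 0.03. RPS9 had 650 and 622 CPM in pig 88R and 793 and 692 CPM in pig 95R, with log2 differences between the pigs of 0.287 in LGR5-high and 0.155 in LGR5-negative. Over all tested members the median size of this difference was 0.0497 in LGR5-high and 0.0518 in LGR5-negative. With 1 animal on each side, the difference between animals was not tested.

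Some ribosomal protein genes have paralogs that replace or accompany them in certain tissues. The 3 paralogs that the symbol pattern includes held few counts. RPL10L, a testis paralog of RPL10, had 0 and 1 counts in LGR5-high and 1 and 0 in LGR5-negative, and it is the member that failed the filter. RPL3L, a paralog of RPL3 known from striated muscle, had 15 and 20 counts in LGR5-high and 21 and 24 in LGR5-negative, against 39721 and 39350 for RPL3 in LGR5-high and 34034 and 36898 in LGR5-negative. Its log2 fold change of -0.55 had a 95% interval from -1.51 to 0.397. RPS27L, a p53 target, had 967 and 1099 counts in LGR5-high and 1004 and 1144 in LGR5-negative, with a log2 fold change of -0.25 (adjusted p = 0.144, edgeR).

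Of the paralogs outside the pattern, 2 passed the test. RPL22L1, the partner of RPL22, had 98.9 and 100.1 CPM in LGR5-high and 144 and 140 CPM in LGR5-negative. The log2 fold change was -0.51 (SE 0.0736, adjusted p = 0.00324, edgeR), while RPL22 itself had 0.04 (adjusted p = 0.723, edgeR). The counts of RPL22L1 were 33.9% and 32.9% of those of RPL22 in LGR5-high and 48.4% and 49.1% in LGR5-negative, a proportion that no scaling changes. RPL22L1 was lower with library size only as well (log2 fold change -0.29, adjusted p = 0.0232, edgeR). RPL26L1 had 27.7 and 31.0 CPM in LGR5-high and 22.8 and 23.0 CPM in LGR5-negative. The log2 fold change was 0.36 (SE 0.112, adjusted p = 0.0454, edgeR), beside 0.10 for RPL26. This call was lost with DESeq2 (adjusted p = 0.0621), with all genes of at least 1 count (adjusted p = 0.0626, edgeR) and without any 1 of the 4 libraries (adjusted p between 0.0861 and 0.225, edgeR), whereas that of RPL22L1 held without each library (adjusted p between 0.0106 and 0.0267, edgeR). RPL36AL and RPL7L1 had log2 fold changes of -0.22 (adjusted p = 0.0629, edgeR) and -0.13 (adjusted p = 0.483, edgeR), and RPL36AL was called lower with the replicate block (adjusted p = 0.0475, edgeR). The difference between a paralog and its parent gene was not tested. Reads shared between paralogs or with processed pseudogenes, which are common for this family, could be assigned in different ways, and how such reads were counted is not given in the sources used here.

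Some ribosomal proteins are made as fusions with ubiquitin or a ubiquitin-like protein. RPS27A is a member, and it had 777 and 804 CPM in LGR5-high and 797 and 762 CPM in LGR5-negative (log2 fold change 0.02, adjusted p = 0.856, edgeR). FAU had 376 and 404 CPM against 443 and 437 CPM (log2 fold change -0.17, adjusted p = 0.130, edgeR). RACK1, a scaffold on the head of the small subunit, had 1203 and 1272 CPM against 1255 and 1331 CPM (log2 fold change -0.06, adjusted p = 0.581, edgeR). None of these was called by edgeR, with 0 under an unadjusted p-value of 0.05, and with library size only FAU and RACK1 had log2 fold changes of 0.05 and 0.16.

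Other genes of the same control and of translation were read from fixed lists. Their counts stand beside 22.7% higher and 22.0% lower over all genes with TMM, and 34.2% and 14.6% with library size only. Of 20 other TOP genes tested, 2 were higher and 3 lower, with a median of -0.02. The elongation factor EEF1A1 had 10671 and 10611 CPM in LGR5-high and 10146 and 11361 CPM in LGR5-negative, and EEF2 had 2941 and 2739 CPM against 2782 and 2971 CPM. Neither was called, with log2 fold changes of -0.02 for both. The extremes of the TOP list were EIF3L, a subunit of initiation factor EIF3, with a log2 fold change of 0.52 (adjusted p = 0.00395, edgeR), and VIM, the intermediate filament gene of mesenchymal and immune cells, with -3.65 (adjusted p = 2.56e-04, edgeR). VIM moved in the direction of the immune, fibroblast, melanocyte and endothelium markers given above and opposite to the smooth muscle markers. The part of any of these cells was not tested.

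Many of the genes that build ribosomes were lower in LGR5-high; the difference from their protein components was not tested. Of 50 ribosome biogenesis genes tested, 0 were higher and 25 were lower, with a median log2 fold change of -0.31, and 40 were below 0 in both pigs, where 41.9% of all genes were. Without adjustment edgeR had 0 higher and 30 lower, DESeq2 called 0 and 23, and limma-voom 0 and 25. The lowest was NOP2, a nucleolar RNA methyltransferase, with 57.1 and 55.2 CPM in LGR5-high and 114 and 111 CPM in LGR5-negative (log2 fold change -0.997, adjusted p = 3.68e-04, edgeR). The highest was FBL, the fibrillarin of box C/D particles, with 0.17 (adjusted p = 0.138, edgeR). With library size only, 3 of the 50 were higher and 8 lower, so that the share of lower genes was close to the 14.6% of all genes, and the median was -0.08, beside 0.24 over all genes. Of 15 genes of RNA polymerase I and its factors, 1 was higher (TAF1C, 0.42) and 6 were lower, the lowest being the polymerase subunit TWISTNB with -0.90. The call of TAF1C was lost without either LGR5-high library and without the LGR5-negative library of pig 95R (adjusted p up to 0.145, edgeR).

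Of 34 initiation factors tested, 2 were higher and 15 lower, with a median of -0.21. EIF6, which keeps the subunits apart until the large subunit is mature, had 187 and 185 CPM in LGR5-high and 419 and 380 CPM in LGR5-negative (log2 fold change -1.10, adjusted p = 3.70e-04, edgeR). Of 11 elongation and termination factors, 0 were higher and 5 lower, with EEF2K, the kinase that inactivates EEF2, at -1.44 (adjusted p = 7.49e-04, edgeR) and EEFSEC, the selenocysteine factor, highest at 0.01. Without adjustment 0 of the 11 were higher and 6 lower, and DESeq2 and limma-voom called 0 higher as well. With library size only, 6 initiation factors were higher and 6 lower, or 17.6% each, the latter close to the share of all genes, and 2 elongation and termination factors were lower. Of 14 regulators of TOP mRNA translation, 0 were higher and 6 were lower, with 0 and 8 before adjustment and 0 and 6 by DESeq2 and by limma-voom. They included LARP1 with -0.49 (adjusted p = 0.00593, edgeR) and the translational repressor EIF4EBP2 with -0.91 (adjusted p = 6.06e-04, edgeR), and the highest was TSC2, an inhibitor of mTOR signaling, with 0.20 (adjusted p = 0.0968, edgeR). MTOR itself had -0.20 and was not called.

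Mitochondrial ribosomal proteins, which build the separate ribosome of the mitochondrion, made the last list. Of 76 tested, 10 were higher and 3 lower, with a median of 0.08, an SD of 0.295 against 0.147 for the cytosolic members, and per-animal medians of 0.06 (88R) and 0.15 (95R). The 10 higher genes are 13.2% of the list, under the 22.7% of all genes. MRPS33 had the highest log2 fold change, 0.91 (52.9 and 60.8 CPM against 30.5 and 29.97 CPM, adjusted p = 0.00147, edgeR), and MRPL48 the lowest, -0.58 (adjusted p = 0.0226, edgeR), a call lost without any 1 of the libraries (adjusted p between 0.0560 and 0.117, edgeR). With the replicate block 18 were higher and 3 lower, and the 18 are 23.7% beside 28.5% of all genes. Library size only gave 31 higher, or 40.8% beside 34.2% of all genes. The difference in spread between the cytosolic and mitochondrial genes was not tested.

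**Figure D5:**
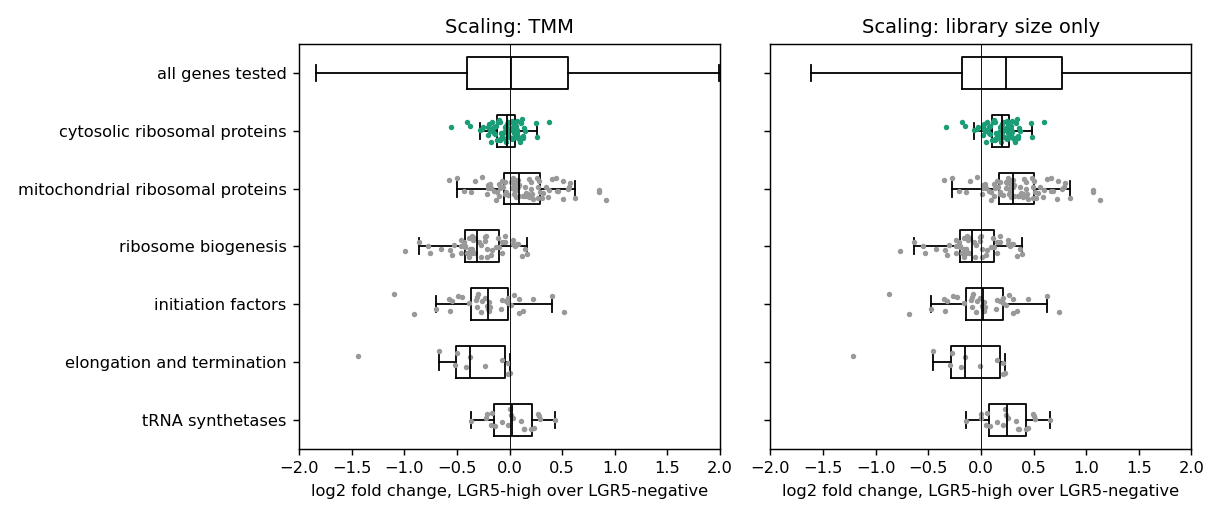
Log2 fold change of LGR5-high over LGR5-negative (horizontal axes) for all genes tested and for 6 lists, with TMM scaling (left) and library size only (right). Boxes give the quartiles and median, whiskers reach 1.5 times the box width (axis cut at -2 and 2), and points are single genes; the cytosolic ribosomal proteins form the narrowest of the drawn groups and shift with all genes from a median of -0.02 to 0.20.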

How the data were processed

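RNA was sequenced from LGR5-high and LGR5-negative epidermal cells of pigs 88R and 95R. The counts the authors deposited are whole reads for each gene symbol, not normalized. The submitters' processing notes name Trimmomatic 0.36, STAR 2.5.2b, featureCounts and Subread 1.5.2. The genome build, the strand setting and the handling of reads that map to several places are not given in the sources used here. A single entry without a name, between 0.360% and 0.626% of the counts, was left out.

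All genes were fitted in R 4.3.3 with edgeR 4.0.16, using filterByExpr (minimum count 10, minimum total 15), TMM scaling, a quasi-likelihood test of the population with no other term, and Benjamini-Hochberg adjustment over all tested genes. Tests were two-sided. Single pigs were compared on log2 CPM (prior count 2), and intervals are 95% intervals of the fit. Libraries of the same animal are pairs, since they come from 1 pig. After subtracting population means they correlated at 0.370 over all tested genes and at 0.449 over the tested members. DESeq2 1.42.0 and limma 3.58.1 served as alternatives, as did Student's t-test, which the study's methods name without a scale and which was run here on log2(CPM + 1). The fits were also run on simulated counts, with changes larger than those of the called members and no difference between animals. That run does not assess calls of the size seen here. The members, the gene lists and the named genes (extremes of each list, the largest parts of the pool, the stalk, paralogs and fusion genes) were chosen with earlier results of these data known; RPL5, RPL11, LARP1, MTOR, EEF1A1 and EEF2 were added after their values were seen. Lists held 20 tRNA synthetases and 15 RNA polymerase I genes under the symbols of the table. Plots used matplotlib 3.10.9. Some genes that the naming rule selects are not reported here.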

Additional observations from a re-analysis of the deposited data

How the results depend on the processing

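The number of called members, 2 higher and 3 lower, kept within 1.5 times under the DESeq2 size factors, TMM without the members, at least 10 counts in every library, DESeq2, limma-voom and the replicate block, which gave 3 higher and 4 lower. Other settings moved it, and the cause was not tested. Higher members numbered 30 with library size only, 4 with upper quartile scaling, 1 with all genes of at least 1 count, and 10 with library size less keratin counts, a setting chosen after seeing the data. Lower members numbered 0 under both library size settings. Student's t-test and Bonferroni adjustment of the edgeR p-values called 0 in either direction, with 6 higher and 8 lower members (t-test) and 3 and 4 (edgeR) at an unadjusted p-value under 0.05. The share of all genes called is given above for the replicate block, upper quartile scaling and both library size settings. For the other settings it is not given here, so their counts do not set the members apart from other genes. Leaving out each library gave between 0 and 1 higher and between 0 and 4 lower members; where this left a population with 1 library, that library was assumed to vary like the others.

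The medians of all, large and small subunit members were 0.20, 0.20 and 0.23 with library size only; they were 0.074, 0.070 and 0.10 with upper quartile scaling, and 0.13, 0.13 and 0.16 with the keratin-free size. The ratio of the ribosomal shares was 1.08 without keratin counts and 1.08 without the 20 other top genes. RPLP1, RPLP2, RPS15 and RPL13 stayed below 0, and RPSA, RPL21 and RPS2 above 0, in all 17 settings. These genes were picked as extremes of the main fit and the settings reuse the same counts, so the constant sign is not separate evidence.

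Some genes that the main test did not call changed sign, RPL36AL, RPL35, RPS27, FAU and RPLP0 from values between -0.22 and -0.17 and others from nearer 0. With library size only, RPL4 had 0.13, RPLP0 0.057, RPL7L1 0.092, RPL36AL 0.0055, RPL3 0.18, RPS27 0.044, RPL7 0.19, FAU 0.049, RACK1 0.16, RPL35 0.018, RPL11 0.12 and RPL5 0.15. With the keratin-free size, RPL4 had 0.059, RPL7L1 0.020, RPL3 0.11, RPL7 0.12, RACK1 0.088, RPL11 0.053 and RPL5 0.079. With upper quartile scaling, RPL4 had 0.0017, RPL3 0.054, RPL7 0.063, RACK1 0.032 and RPL5 0.022. EEFSEC had -0.00012 with DESeq2, -0.00081 with DESeq2 and the block, -9.7e-05 with the DESeq2 size factors and -0.00163 with all genes of at least 1 count. Leaving out each library moved RPS9 between -0.0091 and 0.264, RPL7L1 between -0.291 and 0.026, RPL22 between -0.0030 and 0.062, RPS27A between -0.021 and 0.046, and EEFSEC between -0.046 and 0.053.

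Levels per transcript length were not computed, since the reference tables used here give only the span of each gene. Among the members, low counts limit the values of RPL3L and RPL10L.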

Other observations

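The cytosolic tRNA synthetases, which charge the tRNAs that ribosomes use, had a median log2 fold change of 0.03 over 20 genes, of which edgeR called 2 higher and 1 lower in LGR5-high, beside 22.7% and 22.0% of all genes. With the replicate block these were 4 and 2, beside 28.5% and 27.2%. GARS, the glycine enzyme, had 87.7 and 88.5 CPM in LGR5-high of pigs 88R and 95R and 60.6 and 69.6 CPM in LGR5-negative, with a log2 fold change of 0.44 (adjusted p = 0.0141, edgeR). NARS, the asparagine enzyme, had 115 and 116 CPM against 147 and 151 CPM, with -0.36 (adjusted p = 0.0108, edgeR). Without either LGR5-high library both calls were lost, and that of GARS was also lost without the LGR5-negative library of pig 88R (adjusted p up to 0.0693 for GARS and 0.0611 for NARS, edgeR). With library size only, 11 of the 20 were higher, beside 34.2% of all genes, and the median was 0.25, beside 0.24 over all genes tested.

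Of 10 genes for the rescue of stalled ribosomes, 1 was higher and 2 were lower. ZNF598, which marks collided ribosomes with ubiquitin, had 88.5 and 81.2 CPM in LGR5-high and 126 and 115 CPM in LGR5-negative, with a log2 fold change of -0.51 (adjusted p = 0.00725, edgeR). EDF1, which binds collided ribosomes as well, had 89.1 and 103 CPM against 68.7 and 64.0 CPM, with 0.53 (adjusted p = 0.00862, edgeR). Without the LGR5-high library of pig 95R, ZNF598 missed the threshold (adjusted p = 0.0544, edgeR). Both calls held with library size only, where the log2 fold changes were -0.28 and 0.76.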
